A study of Mus musculus with 7 samples.

Results

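In RAW264.7 cells, 9434 of 344401 regions of open chromatin were constitutive regions at gene ends, and they are described here. They were selected on measured values: overlapping or touching ATAC-seq peaks of all 7 libraries were merged, and a region was kept when it was shorter than 5000 bp, held a peak in every library and had its midpoint within 1 kb of either end of a protein-coding gene. All 7 libraries called 43170 regions, and 42411 of those were shorter than 5000 bp, which left 32977 constitutive regions away from gene ends as the comparator. Being open in every library is therefore the choice itself and no result. Whether a constitutive region was a gene-end region or a comparator was decided by its position only, so peak strength and width could be compared between them.

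RAW264.7 is a mouse monocyte-macrophage line, derived from a single tumour, that forms osteoclast-like cells when given RANKL, the cytokine that drives osteoclast formation. The study had 4 groups: untreated cells (2 libraries), cells given 50 ng/ml RANKL (2), cells given RANKL together with 500 nM of the BET inhibitor I-BET (2), and cells given I-BET without RANKL (1, labelled replicate 2). Treated cells were taken at 4 h, and all groups were the same cell line with no other agent named. The labels do not say that replicates came from separate cultures, so p-values cover only the spread between these libraries, which may be technical.

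A promoter is the stretch of DNA around a gene's start where RNA polymerase II and its general factors assemble. Promoters of widely expressed genes commonly lie in CpG islands, GC-rich stretches that keep their CpG dinucleotides and are bound by factors such as Sp1, NRF1, NFY, YY1 and the ETS family, whereas many cell type genes rely on distal enhancers bound by lineage factors such as PU.1 and by AP-1. ATAC-seq marks such nucleosome-poor DNA because a transposase inserts adapters there. BET proteins bind acetylated histones and help polymerase leave the promoter, and I-BET blocks that binding.

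The promoters of 6 gene-end regions show what these sequences look like. The first 5 come from the strongest gene-end region with the named motif that no earlier line shows, by the mean fold percentile, a rank of peak strength explained below. The sixth is from an osteoclast and macrophage gene. Each line gives 100 bases from upstream of a RefSeq start on GRCm38.p6, 5′ to 3′ on the gene's strand, with the motif match in capitals. Hdgfl2 (chr17:56079531-56079630, plus strand) has an ETS match read on the opposite strand, 4930579G24Rik (chr3:79628841-79628940, plus strand) has overlapping NRF1 matches on both strands, and Rab40c (chr17:25919715-25919814, minus strand) has a YY1 match. Pgap2 (chr7:102210387-102210486, plus strand) has a cyclic AMP response element (CRE), and Trim45 (chr3:100922373-100922472, plus strand) has 2 CCAAT boxes read on the opposite strand. Trem2 (chr17:48346301-48346400, plus strand) has a match to the AP-1 pattern searched here, TGANTCA, where N is any base.
Hdgfl2: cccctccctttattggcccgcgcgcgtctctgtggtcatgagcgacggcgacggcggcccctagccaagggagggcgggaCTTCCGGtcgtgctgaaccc
4930579G24Rik: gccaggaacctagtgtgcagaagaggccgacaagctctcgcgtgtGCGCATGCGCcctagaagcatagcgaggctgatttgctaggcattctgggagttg
Rab40c: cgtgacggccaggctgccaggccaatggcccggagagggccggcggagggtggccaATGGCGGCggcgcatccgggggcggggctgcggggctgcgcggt
Pgap2: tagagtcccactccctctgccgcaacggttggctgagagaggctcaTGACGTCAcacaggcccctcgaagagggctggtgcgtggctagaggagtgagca
Trim45: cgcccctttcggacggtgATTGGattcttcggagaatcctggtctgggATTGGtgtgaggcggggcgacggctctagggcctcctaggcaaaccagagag
Trem2: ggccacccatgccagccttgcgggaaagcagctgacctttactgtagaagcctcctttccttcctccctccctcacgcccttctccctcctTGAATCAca

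These windows differ in composition. In the 300 bases from 250 before to 50 after the start, GC content was 64.0% for Hdgfl2 and 75.3% for Rab40c, and the CpG observed over expected ratio was 0.978 and 0.974. Trem2, a receptor of macrophages and osteoclasts, had 56.0% GC and a CpG ratio of 0.221. Its region ranked at the 78.3, 88.1, 82.2, 89.97, 80.8, 87.4 and 91.4 percentile in untreated replicates 1 and 2, RANKL 1 and 2, RANKL+I-BET 1 and 2 and I-BET 2. The Hdgfl2 region was never below the 99.7 percentile.

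The libraries differed in quality in ways that bear on the choice. They held 117175 to 166369 peaks, and the share of peaks with a −log10 q of at least 5 ran from 25.2% in untreated replicate 1 to 74.0% in RANKL+I-BET replicate 2. Read counts were not given, so depth is unknown. Among regions at gene ends under 5000 bp, 992 were called in 6 of the 7 libraries, and 661 of these lacked a peak only in untreated replicate 1, against 1 to 107 for each of the other 6 libraries. Without that library the gene-end regions numbered 10098.

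Gene ends held a larger share of constitutive regions than of other regions. Of regions called in all 7 libraries, of any length, 22.4% had their midpoint within 1 kb of a gene end, against 4.99% to 6.35% of regions called in 1 to 6 libraries. The count of constitutive regions under 5000 bp was 4291 within 250 bp of a gene end, 2754 from 250 to 500 bp, 1465 from 500 to 750 bp and 924 from 750 to 1000 bp. Beyond the limit it was 629 in the next 250 bp and 495 from 2000 to 2250 bp.

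Peak strength followed the same course. It is given as the fold percentile: the deposited fold of the strongest peak in a region, ranked within its library among the same 42411 regions, where 100 is the strongest. The median over regions of the mean fold percentile was 80.2 within 250 bp of a gene end, 69.5 from 750 to 1000 bp, 60.1 from 1000 to 1250 bp and 41.6 from 1750 to 2000 bp. The limit of 1 kb is thus set on a slope. The 320 regions at 900 to 1000 bp had a median of 68.9 and a median width of 1726 bp, and the 277 regions at 1000 to 1100 bp had 65.2 and 1454 bp. On the limit of length, 145 gene-end regions of 4500 bp up to the limit of 5000 bp had a median percentile of 88.3, and the 63 regions of 5000 bp to under 5500 bp outside it had 88.9.

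**Figure D1:**
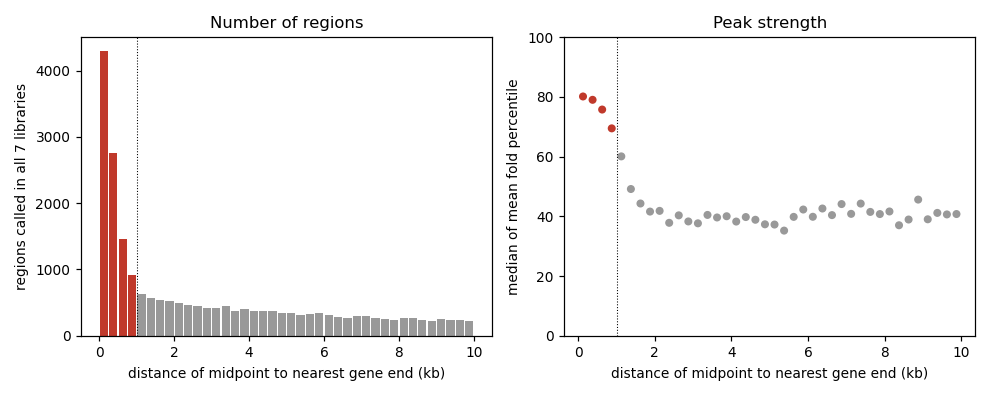
Constitutive regions under 5000 bp by the distance of their midpoint to the nearest gene end, in bins of 250 bp up to 10 kb: the number of regions (left) and the median of the mean fold percentile over 7 libraries (right). Red bins lie within 1 kb (dotted line); the count falls from 4291 in the first bin to 924 in the fourth, and the median percentile from 80.2 to 69.5.

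Most gene-end regions marked gene starts. Strand was known from RefSeq promoter records for 17492 of 21887 protein-coding genes (79.9%). By these, 6916 regions (73.3%) lay at a start, 708 (7.5%) at a finish with no start nearby, and 1810 (19.2%) at genes whose strand was not in the table. Of the genes with a strand, 44.0% had a gene-end region at the start and 6.28% at the finish. The midpoint of regions at starts lay a median of 193 bp inside the gene (quartiles −8.5 and 411.5), 74.1% lay downstream of the start, and 48.1% were within 250 bp of it.

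Regions at starts were stronger and wider than regions at finishes. The median fold percentile of the 6916 regions at starts was 87.1 and 80.5 in the untreated libraries, 82.8 and 79.2 with RANKL, 85.3 and 78.2 with RANKL+I-BET and 80.1 with I-BET. For the 708 finish-only regions it was 38.1, 38.8, 34.98, 38.9, 35.7, 39.3 and 40.9 in the same order. The difference was 43.8 ± 4.79 percentile points (SD, n = 7 libraries, higher in 7 of 7, exact two-sided sign-flip permutation p = 0.0156, the smallest 7 libraries can give, and 0.0156 after adjustment over 6 such tests). Starts were also wider, by 807.4 ± 51.6 bp (SD, n = 7, exact permutation p = 0.0156). Only 18 of the finish-only regions (2.54%) lay within 1 kb of some other listed start.

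Shared ends stood above single ones. Ends of 2 or more protein-coding genes were covered by 1393 gene-end regions (14.8%), and 796 lay near the starts of 2 or more, in 505 of which genes on opposite strands pointed away from each other. The region shared by Etfdh, an enzyme that passes electrons from fat and amino acid breakdown into the respiratory chain, and 4930579G24Rik is one region at several genes. Regions at several genes had a fold percentile higher by 8.81 ± 1.20 points (SD, n = 7, exact permutation p = 0.0156) and were wider by 299.0 ± 29.8 bp (SD, n = 7, exact permutation p = 0.0156) than regions at 1 gene. These groups were not matched for starts and finishes, and the part of that mix was not tested. The median of the mean percentile was 85.7 at several genes and 76.9 at 1 gene. It was 81.3 over all regions at starts and 37.4 over finish-only regions.

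Within every library the gene-end regions as a whole outranked the other constitutive regions, but the finish-only regions among them did not. Their median fold percentile was 84.8 and 77.7 in the untreated libraries, 79.4 and 76.1 with RANKL, 82.5 and 74.8 with RANKL+I-BET and 77.2 with I-BET, and that of the others was between 41.2 and 43.4. Every median over all gene-end regions was above every median of the other regions. The finish-only regions taken alone had medians of 34.98 to 40.9, below the other regions in each library. The mean difference was 36.3 ± 4.18 percentile points (SD, n = 7, range 31.9 to 43.7, higher in 7 of 7 libraries, exact two-sided sign-flip permutation p = 0.0156, adjusted p = 0.0156 over 6 tests). They made up 22.2% of the regions ranked, but 52.2% to 78.3% of the top decile by fold and 6.55% to 10.3% of the lowest decile.

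Width, the bp of a region under a library's peaks, separated the 2 kinds as clearly. The gene-end median was 1179.5 and 1536 bp in the untreated libraries, 1478.5 and 1595 bp with RANKL, 1470 and 1869 bp with RANKL+I-BET and 1369 bp with I-BET. The other regions had 530, 771, 751, 812, 689, 1029 and 678 bp. The difference was 748.1 ± 63.8 bp (SD, n = 7, exact permutation p = 0.0156). Finish-only regions taken alone were close to the others: the median of the mean width over libraries was 776.9 bp, against 752.6 bp. Untreated replicate 1 had the narrowest peaks in both kinds of region and RANKL+I-BET replicate 2 the widest, and these 2 libraries also had the smallest and the largest share of peaks past that −log10 q.

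**Figure D2:**
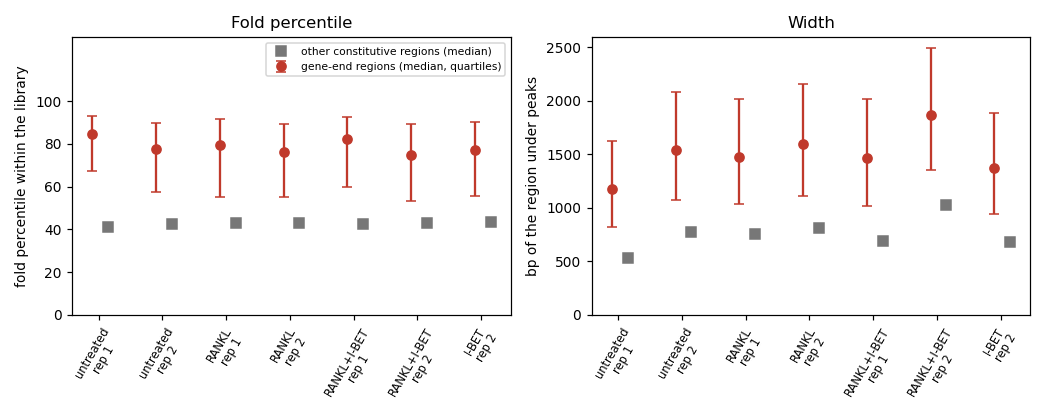
Fold percentile (left) and width in bp (right) of gene-end regions (red circles, median with quartiles) and of the other constitutive regions (grey squares, median) in each of the 7 libraries. Gene-end medians lie between 74.8 and 84.8 in percentile and between 1179.5 and 1869 bp in width, above the other regions in all 7 libraries.

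Gene-end regions also kept their place from library to library. The median SD of a region's percentile over the 7 libraries was 6.06 points, against 9.46 points for the other constitutive regions. All 7 libraries placed 6676 gene-end regions (70.8%) above the 50th percentile, and 1492 (15.8%) above the 90th, where 1.29% of the other regions stood. At the other extreme, 41 gene-end regions (0.435%) were below the 10th percentile in every library, against 0.782% of the others. A rank near 100 has little room to vary, and no test was made of the SDs.

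The strongest gene-end region was at Gm20594, a predicted gene on chromosome 6 (79817894 to 79818547, mm10, 144 bp from the start). Its deposited fold was 2682 and 2398 in the untreated libraries, 2225 and 2563 with RANKL, 1939 and 949 with RANKL+I-BET and 2225 with I-BET. The next region, at Etfdh and 4930579G24Rik, had folds of 191, 172, 205, 194, 243, 159 and 121. Gm20594 thus stood at least several times above every other gene-end region in each library, although its region was only 654 bp long. Whether reads that map to several places were kept is not given in the sources used here, so the part of such reads in this value was not tested.

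Among the next strongest regions, that of Trim45, which encodes a RING-finger protein, had folds of 162, 190, 235, 188, 236, 170 and 113. Stt3a, the catalytic subunit of the enzyme that attaches N-glycans, Khsrp, an RNA-binding splicing and decay factor, Sp1, the GC box factor, Zbtb20, a zinc-finger repressor, and Suco, a membrane protein, had mean percentiles of 99.9. The weakest gene-end regions were at Kcnip1, a potassium channel subunit, with a mean percentile of 1.78, the shared finish of Sh3gl1 and Mpnd at 2.00, Rragd, a GTPase of nutrient sensing, at 2.08, and Col25a1, a membrane collagen, at 2.25. Folds at Kcnip1 ran from 2.36 to 3.78.

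Size went with other genes. The widest region was at Tob2, an antiproliferative protein, with 4114, 4462, 4326, 4657, 4472, 4530 and 4504 bp under peaks in the order of libraries given above. Pim1, a kinase of cytokine signalling, had 3991 to 4835 bp and a mean percentile of 83.4. Trmt61a, a tRNA methyltransferase, Nab2, a corepressor of Egr factors, Klf9, a zinc-finger factor, and Slc6a6, the taurine transporter, completed the 6 widest, with mean percentiles of 70.8, 95.3, 98.1 and 89.4. The median length of all gene-end regions was 1987 bp (150 to 4994 bp), against 1134 bp for the other constitutive regions.

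Sequence, which the choice did not use, set starts with a gene-end region apart from starts without one. RefSeq promoter windows of 300 bases were held for 21263 starts, of which 8429 had a gene-end region, 7051 another region and 5783 no region in any library, and several starts can belong to 1 gene. Median GC content was 61.7% at starts with a gene-end region, 57.0% with another region, 45.7% with none and 56.3% over all starts. The median CpG observed over expected ratio was 0.800, 0.480, 0.193 and 0.567. No test was made of these shares, since starts near each other share sequence.

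Motifs were searched as exact letters on both strands. The GC box of Sp and KLF factors (GGGCGG) was in 67.6% of the windows with a gene-end region, 46.2% of all windows and 15.1% of those with no region. The ETS motif (CCGGAAG) was in 21.6%, 11.6% and 2.40%, NRF1 (GCGCATGCG) in 4.45%, 2.35% and 0.363%, YY1 (ATGGCGGC) in 5.80%, 3.02% and 0.346%, and the CRE (TGACGTCA) in 3.69%, 2.23% and 0.830%. The E-box (CACGTG) was in 11.0%, 7.84% and 3.87%, and the NF-kB motif (GGGANTTCC) in 2.59%, 1.84% and 0.847%. All but the NF-kB motif hold a CpG, and the windows differ in GC content as given above; the part of base composition in these shares was not tested. Matches of different motifs can overlap in 1 window.

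The TATA box and the AP-1 pattern went the other way. The TATA box (TATAAA) was in 6.26% of windows with a gene-end region, 12.6% of all and 24.7% of those with no region. The AP-1 pattern (TGANTCA) was in 4.47%, 6.99% and 9.91%. N stood for any base, and the match printed for Trem2 has an A there. Matches were not split by the base at N, so the share of any single version of the pattern is not known. The part of base composition in the TATA and AP-1 shares was not tested either. PU.1 (GAGGAAGT), the lineage factor of macrophages, was in 3.10%, 3.13% and 3.44%, nearly the same share in each. The CCAAT box of NFY (CCAAT) was in 39.6%, 38.2% and 41.2%. A match describes letters in the window and not a bound site.

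Among gene-end regions, CCAAT boxes went with strength. Windows in the highest quartile of mean fold percentile held one in 52.6%, and windows in the lowest quartile in 31.1%. The GC box was in 76.3% and 57.4%, ETS in 21.6% and 14.1%, TATA in 3.70% and 8.40% and AP-1 in 3.27% and 6.02%, while median GC content was 63.3% and 59.0%. Each quartile held 2108 windows. The 2 CCAAT boxes printed for Trim45 are an example from the top of this order.

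**Figure D3:**
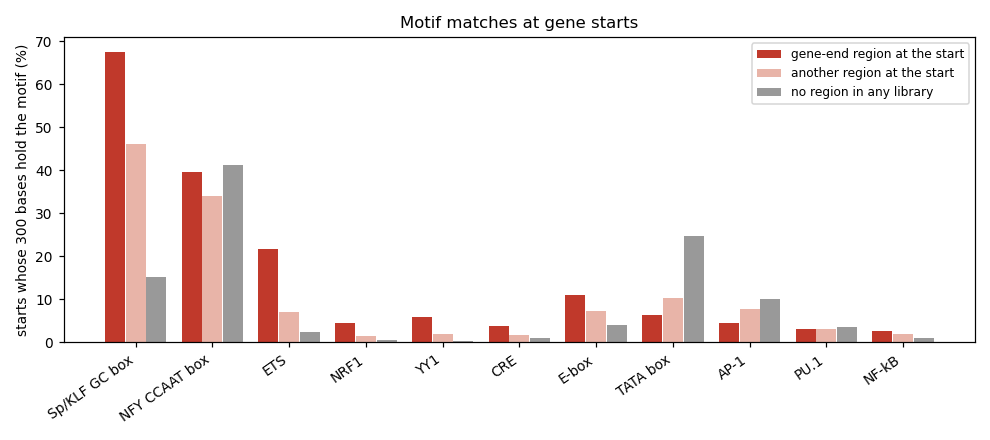
Share of RefSeq start windows (300 bases, in %) that hold each of 11 motifs, for starts with a gene-end region (8429), with another region (7051) and with no region in any library (5783). GC box, ETS, NRF1, YY1, CRE, E-box and NF-kB shares are highest at starts with a gene-end region, and TATA and AP-1 shares at starts with no region.

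The share of genes with a gene-end region differed between the gene lists. Of 21887 protein-coding genes, 10085 (46.1%) had a gene-end region, 1802 had at an end only another constitutive region, too long or centred farther away, 4481 had a region of 1 to 6 libraries and 5519 (25.2%) had none. Translation initiation factors had one in 23 of 24 genes, proteasome subunits in 25 of 27, spliceosome genes in 24 of 26, RNA polymerase II and its general factors in 24 of 26 and aminoacyl-tRNA synthetases in 19 of 21. Cell cycle genes had one in 26 of 30, DNA repair genes in 25 of 29, BET proteins and elongation factors in 22 of 26, lysosome and proton pump genes in 23 of 26, respiratory chain genes in 23 of 28, mitochondrial ribosome genes in 21 of 26 and genes of Myc function and ribosome biogenesis in 21 of 26. Widely expressed reference genes had one in 8 of 18 and another constitutive region in 8.

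Some of the strong regions in these lists were shared by a pair of genes. The DNA damage kinase gene Atm shares its region with Npat (mean percentile 99.7), and Larp7, which holds the 7SK RNA particle together, with Zgrf1 (98.4). Hexim1, the inhibitor of the elongation kinase P-TEFb, had 98.1, and the kinase gene itself, Cdk9, had 95.4. Others were Eif4g2 (98.8) and Eif4a1 (98.0) of translation initiation, Psma5 (97.7) of the proteasome core, Polr2a (94.0), the largest subunit of RNA polymerase II, and Cdt1 (97.1), a replication licensing factor. Some list members were weak: the region Vars shares with Vwa7 had a mean percentile of 5.65, that of Ccnd2 4.28 and that of Ctsd 10.4. The region of a list gene can lie at its start or at its finish.

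Ribosomal protein genes had a gene-end region in 18 of 28 and another constitutive region in the other 10, 7 of which were 5000 bp or longer. AP-1 and early response genes had a gene-end region in 10 of 25 and another constitutive region in 15, and 11 of those 15 regions were 5000 bp or longer. Fos lay in a region of 8319 bp, Jun in 6032 bp, Myc in 5453 bp, Nfatc1, the master factor of osteoclasts, in 7534 bp, Spi1, which encodes PU.1, in 8540 bp, Brd2 in 7769 bp, Actb in 7028 bp and Gapdh in 9562 bp. None of these 8 genes is therefore among the gene-end regions, although all 7 libraries called them.

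Regions at genes of macrophages and osteoclasts had lower median percentiles. Macrophage identity genes had a gene-end region in 15 of 28 and another constitutive region in 11, 8 of them 5000 bp or longer. The median percentile of the macrophage regions was 63.1, and examples were Cebpa (97.3), a factor of the myeloid lineage, and Tlr4 (92.9), the endotoxin receptor. Osteoclast genes had one in 16 of 26 and another constitutive region in 8, 4 of them 5000 bp or longer. The median of the osteoclast regions was 55.0. They ran from Tyrobp (90.5), a signalling adaptor, and Trem2 (85.4) down to Itgb3 (6.93), the integrin of the resorbing cell, and Src (8.0). All gene-end regions had a median of 78.4. Regions of 5000 bp or longer do not enter these medians, and starts and finishes were not kept apart. The part of either in the lower values was not tested.

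Immune response lists varied. NF-kB pathway genes had a gene-end region in 21 of 25, led by Relb (99.1), Cyld (97.5), a deubiquitinase that restrains the pathway, and Nfkbia (97.5), its inhibitor. Interferon response genes had one in 20 of 24, with a median of 71.7, and Irf9 (91.9) and Stat2 (88.9), subunits of the interferon-activated factor, led. Inflammatory cytokine genes had one in 11 of 26, another constitutive region in 7 and only a region of 1 to 6 libraries in 8. Their gene-end regions had a median of 62.8, with the chemokine genes Ccl3 and Ccl4 sharing the strongest (96.5).

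Markers of other cell types had few. Fibroblast and osteoblast markers had a gene-end region in 0 of 15 genes, liver genes in 2 of 18, neuron genes in 3 of 20, T lymphocyte markers in 3 of 15, skeletal muscle genes in 4 of 16, B lymphocyte markers in 4 of 14, germ cell genes in 5 of 18 and granulocyte and erythroid markers in 5 of 15. Several of these regions are shared with a neighbour: Mylpf, a muscle myosin light chain, with Tbc1d10b (99.3), and Gdf9, an oocyte factor, with Uqcrq of the respiratory chain (94.8). All 12 macrophage markers used to check the cell type had a region called in all 7 libraries, 6 of them a gene-end region. In the lists above, only another constitutive region lay at 3 T lymphocyte markers and at 0 liver or germ cell genes. It lay at 1 gene in each of the B lymphocyte, granulocyte and erythroid, fibroblast and osteoblast, neuron and skeletal muscle lists. Of all 21887 protein-coding genes, 10085 had a gene-end region and 1802 only another constitutive region. The median percentile was 16.4 for neuron gene regions, 21.0 for B lymphocyte, 28.7 for T lymphocyte, 56.1 for germ cell, 56.8 for liver, 60.3 for granulocyte and erythroid and 74.4 for skeletal muscle gene regions, the last 4 above the osteoclast value of 55.0.

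A gene without a gene-end region can still have an open start. Ends were taken as the outermost bases of a gene in the RefSeq table, and of the 10000 genes with no constitutive region there, 417 had another listed start within 1 kb of the midpoint of one. Among the list genes these were Brd3, Cox5a, Cox7a2, Ldha, Mrps2, Psma6, Ubtf and Xrcc6.

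**Figure D4:**
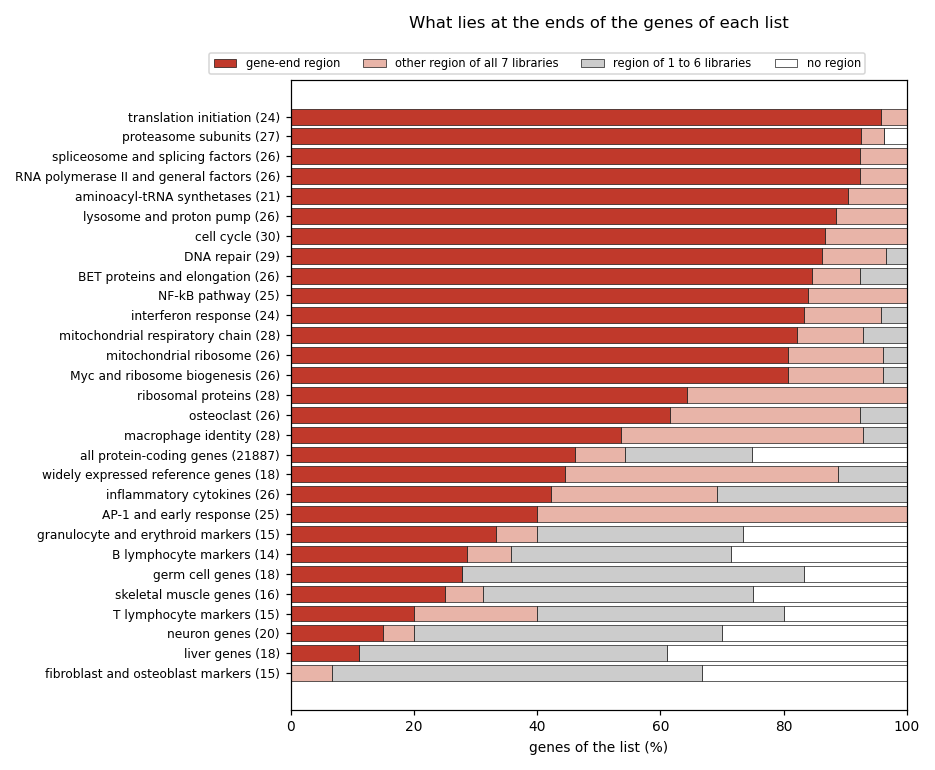
Share of the genes of 28 lists and of all protein-coding genes (in %, number of genes in brackets) whose ends carry a gene-end region, another region called in all 7 libraries, a region called in 1 to 6 libraries, or none. Shares with a gene-end region run from 0 of 15 fibroblast and osteoblast markers to 23 of 24 translation initiation genes.

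The treatments were compared by fold rank and by width over all 42411 constitutive regions. With limma and Benjamini-Hochberg adjustment, 0 gene-end regions differed between RANKL and untreated cells, between RANKL+I-BET and RANKL, or between RANKL+I-BET and untreated cells, in either measure, and 0% of all regions did. The lowest adjusted p over all regions was 0.919. At an unadjusted p under 0.05, fold rank gave 135, 15 and 114 gene-end regions in the 3 comparisons (1.43%, 0.159% and 1.21%, against 4.01%, 0.394% and 3.16% of all regions), and width gave 148, 50 and 104 (1.57%, 0.53% and 1.1%, against 3.64%, 1.01% and 2.83%). With 2 libraries against 2, an exact permutation of a single value cannot go below p = 0.333, so single regions below are values.

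Replicates of the same treatment differed more than treatments of the same replicate number did. These distances are not alike, because a difference within a replicate number leaves out any shift shared by the libraries of that number. They therefore cannot show whether treatment changes are smaller than the spread between replicates. The median absolute difference in fold percentile of a gene-end region between replicates 2 and 1 was 7.5 points in untreated cells, 5.88 with RANKL and 6.59 with RANKL+I-BET. Between treatments of the same replicate number it was 5.77 and 3.6 for RANKL against untreated, 3.37 and 3.11 for RANKL+I-BET against RANKL, and 4.36 for I-BET against untreated replicate 2. The median signed difference with I-BET alone was −0.0525 points, with no replicate to judge it by.

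With all libraries, more gene-end regions had lower than higher ranks with RANKL when only regions without overlap were counted. Both RANKL libraries were above both untreated libraries in fold percentile at 611 gene-end regions (6.48%, against 13.8% of all regions) and below both at 1949 (20.7%, against 16.0%). Leaving out a library leaves 1 against 2, where more regions are without overlap by construction, and the gene-end regions and all constitutive regions are then chosen again from the other libraries. Without untreated replicate 1, the library with the smallest share of peaks past a −log10 q of 5, 2715 were higher (26.9%, against 30.4% of all regions) and 3383 lower (33.5%, against 33.3%), so the share of lower regions was then close to that of all regions. Without untreated replicate 2, 1728 were higher (18.2%, against 35.5%) and 5497 lower (57.9%, against 40.1%). Without RANKL replicate 1 the counts were 1569 (16.5%, against 28.5%) and 4331 (45.6%, against 33.1%), and without RANKL replicate 2 they were 1909 (20.1%, against 27.9%) and 3374 (35.6%, against 31.2%). The median difference within replicate number 1 was −3.23 points and within number 2 it was −0.774. In width, after centring each library on its median, 717 regions were wider (7.60%, against 12.4%) and 2124 narrower (22.5%, against 18.2%). Without untreated replicate 1 these were 2693 (26.7%, against 30.5%) and 3659 (36.2%, against 33.3%), and without untreated replicate 2 they were 1859 (19.6%, against 31.0%) and 5807 (61.1%, against 48.0%). Without RANKL replicate 1 or 2, 1590 or 1844 were wider (16.7% or 19.4%, against 24.2% or 26.7%). In the same order, 4253 or 3499 were narrower (44.8% or 36.9%, against 36.8% or 31.7%).

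For I-BET added to RANKL, the counts in both directions were close with all libraries, and the direction of the larger count turned with the RANKL+I-BET library left out. RANKL+I-BET was above RANKL without overlap at 704 gene-end regions (7.46%, against 7.98% of all) and below at 615 (6.52%, against 7.93%). In width, 865 were wider (9.17%, against 10.3%) and 805 narrower (8.53%, against 11.0%). Without RANKL+I-BET replicate 1, 1733 were higher (18.2%, against 25.8%) and 3417 lower (35.8%, against 26.2%), and 1513 were wider and 5355 narrower (15.9% and 56.1%, against 21.9% and 44.6%). Without RANKL+I-BET replicate 2 it was the reverse: 4579 were higher (46.8%, against 32.9%) and 1945 lower (19.9%, against 32.7%), and 5618 were wider and 1591 narrower (57.4% and 16.3%, against 44.8% and 24.5%). Without RANKL replicate 1, 3198 were higher and 2389 lower (33.7% and 25.1%, against 30.8% and 30.9%), and without RANKL replicate 2, 2314 and 2278 (24.4% and 24.0%, against 26.2% and 26.5%). In width, leaving out RANKL replicate 1 gave 2139 wider and 2063 narrower (22.5% and 21.7%, against 26.7% and 26.8%). Leaving out RANKL replicate 2 gave 2175 and 2174 (22.9% and 22.9%, against 25.5% and 28.0%). The median signed difference in fold percentile was 1.18 points in replicate number 1 and −0.486 in number 2.

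RANKL+I-BET against untreated shares its control libraries with the first comparison. It had 530 gene-end regions higher (5.62%, against 12.0% of all) and 1593 lower (16.9%, against 14.8%). Without untreated replicate 1 the counts were 2723 (27%, against 29.5%) and 3156 (31.3%, against 33.0%), and without untreated replicate 2 they were 1660 (17.5%, against 34.9%) and 5389 (56.7%, against 39.6%). Without RANKL+I-BET replicate 1 they were 1312 (13.7%, against 27.9%) and 4740 (49.7%, against 33.6%), and without RANKL+I-BET replicate 2 they were 2073 (21.2%, against 26.2%) and 2682 (27.4%, against 29.0%). In width, 609 were wider (6.46%, against 10.8%) and 1432 narrower (15.2%, against 14.7%). The larger count in width turned without RANKL+I-BET replicate 2, with 2823 wider (28.9%, against 29.8%) and 2153 narrower (22%, against 25.6%). Without untreated replicate 1, untreated replicate 2 or RANKL+I-BET replicate 1, 1938, 1726 or 1205 were wider (19.2%, 18.2% or 12.6%, against 25.7%, 29.8% or 21.6%). In the same order, 2515, 5183 or 5735 were narrower (24.9%, 54.6% or 60.1%, against 29.8%, 44.9% or 43.4%).

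The gene-end region with the smallest p for a higher rank with RANKL was at the start of Gne, the enzyme that begins sialic acid synthesis. Its fold percentile was 8.93 and 7.45 in untreated cells, 56.6 and 37.8 with RANKL, 37.0 and 47.8 with RANKL+I-BET and 5.18 with I-BET. All 4 libraries with RANKL were above the 3 without. The region had 279 and 484 bp under peaks in untreated cells, 680 and 638 bp with RANKL, 574 and 765 bp with RANKL+I-BET and 296 bp with I-BET. The normal score of its rank was 1.32 ± 0.277 (SE) higher with RANKL, with a limma adjusted p of 0.99.

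Other regions were higher in both RANKL libraries. Aqp7, a channel for water and glycerol, had 14.8 and 17.6 untreated, 40.1 and 43.9 with RANKL, 33.1 and 37.8 with RANKL+I-BET and 2.36 with I-BET, the same order as Gne. Zfand5, a zinc-finger protein of protein turnover, had 30.7 and 36.2 at its finish, then 73.3 and 61.5, 76.2 and 64.0, and 73.1 with I-BET alone, so that its I-BET library stood with the RANKL libraries. Ina, a neuronal intermediate filament, had 4.02 and 3.24, then 25.2 and 14.3, 21.1 and 10.3, and 8.59. Adjusted p was 0.99 for each in limma.

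The 4 gene-end regions with the smallest p for a lower rank with RANKL were at Slc45a4, Plppr3, Tcn2 and Zfp365. Slc45a4, a solute carrier, had 20.7 and 9.02 in untreated cells, 0.526 and 0.710 with RANKL, 0.737 and 0.900 with RANKL+I-BET and 2.36 with I-BET. Plppr3, a phospholipid phosphatase-related protein, had 43.9 and 10.7, then 0.526 and 0.0837, 0.737 and 2.52, and 5.18. Tcn2, the carrier of vitamin B12, had 61.9 and 21.0, then 1.08 and 1.40, 7.24 and 2.34, and 15.8. Zfp365, a zinc-finger protein, had 26.1 and 15.9, then 0.200 and 2.32, 2.58 and 3.10, and 5.18. At Plppr3 and Tcn2 the untreated replicates lay far apart, with replicate 1 the higher, and limma's adjusted p was 0.99 for all 4 genes.

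Regions lower with RANKL+I-BET than with RANKL included 2 immune genes. Cd48, a surface ligand of immune cells, had 27.9 and 21.8 with RANKL, 5.58 and 3.29 with RANKL+I-BET, 14.8 and 9.02 untreated and 12.2 with I-BET. Ccl12, a monocyte chemoattractant, had 15.2 and 8.23 with RANKL, 1.5 and 1.78 with RANKL+I-BET, 8.93 and 9.02 untreated and 5.18 with I-BET. At both genes the RANKL+I-BET libraries were below all 5 others. The adjusted p in limma was 1.0 for each. All these values lie in the lower part of the scale, where many regions are tied: every region below the 10th percentile shared its rank with others in its library.

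Higher with RANKL+I-BET than with RANKL were Tmem269 at its finish (3.93 and 4.34 with RANKL, 14.2 and 13.1 with both), Mfsd6 at its finish (5.22 and 5.54, then 24.4 and 11.5), Hes5, a target of Notch (0.526 and 0.0837, then 7.24 and 0.812), and Pygl, the liver form of glycogen phosphorylase (0.526 and 0.710, then 5.58 and 1.93). In untreated cells Tmem269 had 20.7 and 17.6 and Mfsd6 26.1 and 33.4, above the RANKL and RANKL+I-BET libraries. Limma's adjusted p was 1.0 for all 4.

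Against untreated cells, RANKL+I-BET was higher at Hnrnpf, an RNA-binding splicing protein, which had 4.02 and 10.7 untreated, 30.4 and 31.4 with RANKL+I-BET, 29.2 and 20.2 with RANKL and 26.3 with I-BET. Every treated library was above both untreated ones there. Alkbh3, a DNA and RNA demethylase, had 26.1 and 9.02 untreated and 65.6 and 43.5 with RANKL+I-BET at its finish. Sema4g, a semaphorin, was lower, with 41.2 and 25.9 untreated and 2.58 and 2.34 with RANKL+I-BET, as was Glp1r, the receptor of glucagon-like peptide 1, with 20.7 and 9.02, then 1.5 and 0.726.

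**Figure D5:**
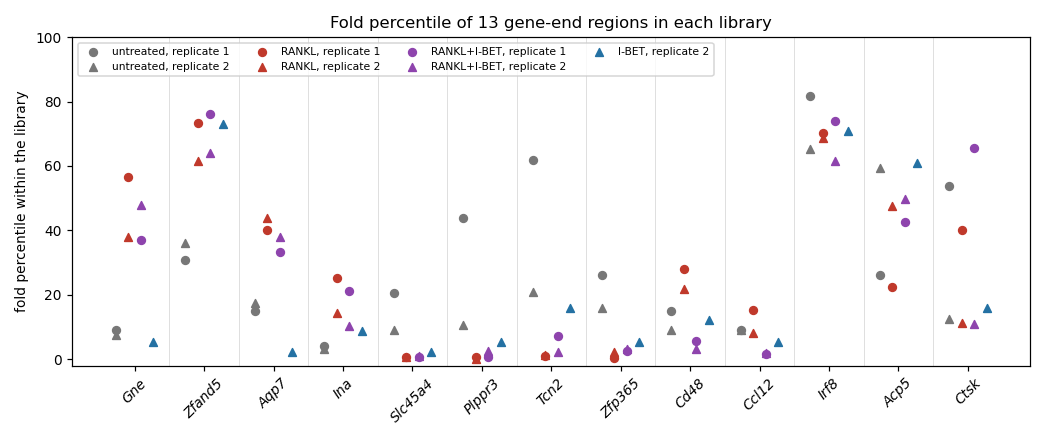
Fold percentile within the library (0 to 100) of 13 gene-end regions in each of the 7 libraries, by treatment (colour) and replicate number (circles for 1, triangles for 2). At Gne and Aqp7 the 4 libraries with RANKL lie above the 3 without, at Cd48 and Ccl12 the RANKL+I-BET libraries lie lowest, and at Ctsk replicate number separates the libraries more than treatment.

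By width, the smallest p was at Pygl. Peaks covered 661 and 1309 bp of its region in untreated cells, 150 and 285 bp with RANKL, 493 and 753 bp with RANKL+I-BET and 150 bp with I-BET. Width relative to the library median differed by −2.45 ± 0.328 (SE, log2, RANKL minus untreated), with a limma adjusted p of 0.919. The shared region of Gpbar1, a bile acid receptor, and Aamp was wider with RANKL: 227 and 283 bp untreated, 1108 and 1099 bp with RANKL, 429 and 1150 bp with RANKL+I-BET and 150 bp with I-BET. Lilr4b, an inhibitory receptor of myeloid cells, had 484 and 356 bp untreated, 1364 and 1343 bp with RANKL, 1640 and 1844 bp with RANKL+I-BET and 811 bp with I-BET, with the 3 libraries without RANKL below the 4 with it. The limma adjusted p was 0.981 for Gpbar1 with RANKL and 0.987 for Lilr4b with RANKL+I-BET, each against untreated. The 150 bp seen at Pygl and Gpbar1 is also the length of the shortest gene-end region. Whether it is the smallest width a peak could have was not tested.

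Regions at genes of macrophages and osteoclasts were no exception. Irf8, a macrophage factor, had fold percentiles of 81.6 and 65.3 in untreated cells, 70.4 and 68.6 with RANKL, 73.9 and 61.4 with RANKL+I-BET and 70.7 with I-BET, with the RANKL values inside the untreated range.

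Acp5, the tartrate-resistant phosphatase, was a member at its finish, with 26.1 and 59.5 untreated, 22.5 and 47.5 with RANKL, 42.5 and 49.9 with RANKL+I-BET and 60.8 with I-BET. Ctsk, the protease of bone resorption, had 53.8 and 12.4 untreated, 40.1 and 11.2 with RANKL, 65.6 and 10.9 with RANKL+I-BET and 15.8 with I-BET. At Ctsk the libraries numbered 1 had 40.1 to 65.6 and those numbered 2 had 10.9 to 15.8, whatever the treatment. The limma adjusted p for RANKL against untreated was 0.99 for Irf8 and Acp5 and 0.994 for Ctsk.

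By list, the counts without overlap are read beside those of all gene-end regions, of which 6.48% were higher and 20.7% lower with RANKL (all constitutive regions: 13.8% and 16.0%). For RANKL against untreated, regions of RNA polymerase II and general factors were higher at 0 and lower at 7 of 25, spliceosome regions higher at 1 and lower at 9 of 26, osteoclast regions higher at 1 and lower at 4 of 18, NF-kB regions higher at 3 and lower at 6 of 23 and interferon regions higher at 3 and lower at 3 of 20. The median differences were −3.53, −4.92, −3.33, −1.96 and −0.811 percentile points, against −2.12 for all gene-end regions. Regions of Myc function and ribosome biogenesis were higher at 0 and lower at 7 of 22, with a median difference of −2.02, and those of T lymphocyte markers were higher at 0 and lower at 3 of 3, with −18.0. Some lists had equal counts: 1 and 1 of 24 for translation initiation, 2 and 2 of 19 for aminoacyl-tRNA synthetases and 5 and 5 of 28 for cell cycle regions. Their median differences were −2.35, −1.68 and −2.0. As given above, the share of lower gene-end regions was close to that of all regions without untreated replicate 1. For RANKL+I-BET against RANKL, 7.46% of all gene-end regions were higher and 6.52% lower (all constitutive regions: 7.98% and 7.93%). There, polymerase regions were higher at 4 and lower at 0 of 25, and BET and elongation regions higher at 1 and lower at 0 of 23. Inflammatory cytokine regions were higher at 3 and lower at 0 of 11, and interferon regions higher at 1 and lower at 3 of 20. In the order named, the list medians were 1.73, 0.479, 2.08 and −2.93 points, against 0.357 for all gene-end regions. These comparisons share the RANKL libraries, and no region in them passed the limma threshold.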

How the data were processed

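Members and gene lists were chosen with earlier results of these data known. Tools named per the submitters' processing notes, in no order, are MACS2, Bowtie2, cutadapt, FastQC, Picard, SAMtools and bedtools, with mm10 as the build; settings are not given in the sources used here. The authors deposited a separate narrowPeak list for each library, called on that sample alone. Each deposited line holds positions, a score, a fold (ratio of pileup to background), a −log10 p and a −log10 q. All of them come from the authors, and here they served to rank, filter or describe peaks inside a single list. Each fold went with a single −log10 p within its list, so both gave the same ranks, and the lists held 206 to 1362 distinct folds over the ranked regions, with ties given their mean rank.

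Peaks were merged across lists, and 21887 protein-coding genes came from a RefSeq table for GRCm38.p6, the mm10 assembly, and promoter sequences from RefSeq for the same assembly, matched by gene for 17492 genes. Of 639 list genes, Mx1 and Mx2 were not matched. Fold ranks became normal scores, and width was log2 of the bp covered, centred on the library median. Regions were fitted with limma 3.58.1 in R 4.3.3 on all 7 libraries in 4 groups, with Benjamini-Hochberg adjustment over 42411 regions and a threshold of 0.05. The fit was tested on simulated data. Kinds of region were compared by an exact sign-flip test over libraries.

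Regions were named by rule: in each comparison and direction, those past the threshold or, as here where none passed, the 4 with the smallest p, as values; the 8 with the highest and 4 with the lowest mean percentile; the 6 widest; the 3 strongest per list; and 12 fixed genes. A few regions falling under this rule are left out here, and further list members named with a percentile were chosen after their values were seen. Alternatives were regions under 2000 bp, ends within 500 bp, a cover of 50%, a −log10 q of at least 5, ranks of −log10 p, percentiles, uncentred width, a replicate block and leaving out each library. Leaving out I-BET replicate 2 was added after seeing the data.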

Additional observations from a re-analysis of the deposited data

How the results depend on the processing

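The number of gene-end regions was 4783 with regions under 2000 bp and 6368 to 10098 under the other alternatives. Gene-end regions as a whole stayed above other constitutive regions in all alternatives run, by 31.8 to 37.5 percentile points and 411.1 to 824.1 bp. The exact permutation p was 0.0156, or 0.0312, the smallest possible, with 6 libraries. Limma called 0 gene-end regions in every comparison, measure and alternative except width for RANKL against untreated, where leaving out 1 library gave 0 to 15 calls: 15 without untreated replicate 2, with a lowest adjusted p of 0.0436. That fit leaves untreated with 1 library, assumed to vary like the other groups; the cause was not tested. With a replicate block there were 0 calls (lowest adjusted p 0.371), and 545, 71 and 332 gene-end regions had an unadjusted p under 0.05 in fold rank, against 135, 15 and 114 without it (5.78%, 0.753% and 3.52% with it, against 12.1%, 1.89% and 9.1% of all regions). The labels do not say that a replicate number marks a shared day; deviations of replicates correlated by 0.417, 0.579 and 0.612 in fold rank across gene-end regions between pairs of groups. Of 3555 percentile differences of named regions under the alternatives, 3140 kept their sign and 380 had the opposite sign. Depth is unknown, weak regions carry tied ranks, and changes that remove a peak fall outside regions called in all 7 libraries.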

Other observations

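Gene-end regions were unevenly spread over chromosomes. On the autosomes, 38.2% (chromosome 7) to 55.3% (chromosome 11) of protein-coding genes had one, on chromosome X 29.1% (281 of 966 genes) and on chromosome Y 1.17% (3 of 256 genes). RNA polymerase II factors include one weak member on the X, Taf1, with a mean fold percentile of 16.2, against 56.7 to 95.1 for the other 23 genes of that list with a gene-end region. Taf1 is a single gene, and peak strength was not compared between chromosomes.

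Peaks within gene-end regions were often divided. Between 22.5% and 34.4% of gene-end regions held more than 1 peak in 6 of the libraries, and 7.63% in RANKL+I-BET replicate 2, where peaks covered a median of 96.6% of the region. In untreated replicate 1 they covered 61.9%. The other constitutive regions held more than 1 peak in 16.1% to 22.2% and in 5.60% of cases in the same libraries.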
